A study of Mus musculus with 18 samples.

Results

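The collagen, laminin and nidogen genes were taken by their symbols alone: every gene of the deposited table named as a collagen alpha chain, a laminin alpha, beta or gamma chain, or a nidogen. There were 57 of these among 24505 genes (44 collagen chains, 11 laminin chains and 2 nidogens), and no measured value entered the choice. They were described as 21 basement membrane genes (the 6 collagen IV chains, Col15a1, Col18a1, the laminins and the nidogens), 11 fibrillar collagen chains and 25 other collagen chains. Of the 57, 48 reached an FPKM (fragments per kilobase of exon, scaled to library size) of at least 1 in at least 3 of the 18 libraries and were tested: 17 basement membrane genes, 11 fibrillar chains and 20 other collagens. The other 9 (Col15a1, Col4a3, Col4a4, Lamc3, Col10a1, Col19a1, Col28a1, Col6a6 and Col9a1) reached between 0.451 and 1.46 FPKM in their highest library and were not tested.

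RNA was sequenced from E14Tg2a mouse embryonic stem cells, either the parental wild type or a derived Daxx-/- line that lacks functional Daxx, a chaperone of a histone H3 variant (here called Daxx-null). Each genotype was grown in serum with LIF (leukaemia inhibitory factor, 1000 units/mL), in 2i (inhibitors of GSK3 and MEK, for the ground state) with LIF and vitamin C (100 µg/mL), or for 24 h without LIF and then for 4 days with 10 µM retinoic acid. All 6 groups had n = 3 libraries, described as independent replicates. No source used here states how they were kept apart, and the p-values measure the spread between these libraries, which may be in part technical. The labels name neither the number of Daxx-/- clones nor the deleted part of Daxx, so loss of Daxx and other differences between the lines cannot be told apart. In bulk RNA, fewer cells of a type and less RNA per cell cannot be told apart either.

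Basement membranes are thin sheets on which epithelial cells rest. Laminins are trimers of an alpha, a beta and a gamma chain and polymerise at the cell surface, collagen IV forms another network of linked trimers, and nidogens bridge the networks. In the early mouse embryo the primitive endoderm and its parietal derivative lay down large amounts of collagen IV and of the laminin made of Lama1, Lamb1 and Lamc1. Fibrillar collagens, such as those made from Col1a1, Col1a2 and Col3a1, form the tensile fibres of connective tissue and are typical products of mesenchyme.

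Depth, recovered from the steps between low values, ranged from 84.2 to 141.7 M counting units per library (1 M is 1000000). Daxx was lower in each Daxx-null library than in any wild-type library of the same culture, at 54.4 to 73.7 FPKM against 237.6 to 434.3. Y-linked transcripts (Eif2s3y, Uty and Ddx3y, summed) were at 1.20 to 2.68 FPKM in Daxx-null serum and retinoic acid libraries, at 173 to 236 in Daxx-null 2i and at 156 to 349 in wild type, so Daxx-null 2i cells differed from the other Daxx-null cells in more than the medium. In 2i, 2 libraries stood apart from their group. In Daxx-null 2i replicate 2, 20 of 48 members were over 2 times both other replicates, against 10.8% of all genes, and in wild-type 2i replicate 3, 28 of 48 were under 0.5 times both others, against 16.7% of all genes. The Daxx-null library also held more Dcx, a neuronal gene (177 FPKM against 0.59 and 0.593), and less of the pluripotency gene Pou5f1 (1918 against 5198 and 4249.9). The wild-type retinoic acid cells, labelled as neural, had lower levels of all 9 pluripotency markers than serum cells and higher levels of 6 of 9 neural markers (Pax6 173 to 211 against 9.77 to 13.3 FPKM), while 1 of the 9, Stmn2, was lower.

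The expressed collagen IV genes lie in pairs on opposite strands. Col4a1 (mm9 chr8:11198423-11312826, minus strand) and Col4a2 (chr8:11312805-11449287, plus strand) start 21 bases apart and overlap by 22 bases, and since no source used here names the strand of the reads, reads in that overlap cannot be told apart. Col4a5 (chrX:137909962-138123778, plus strand) and Col4a6 (chrX:137599946-137908619, minus strand) start 1343 bases apart. Of the 57 members, 41 had an entry in the RefSeq promoter table (GRCm38.p6). In the 250 bases before the start, GGGCGG, on either strand, was present in 24 of 41 members (58.5%) and in 32.7% of 32851 promoters, while CCAAT, on either strand, was present in 14 of 41 (34.1%) and in 33.8%. Median GC content was 59.6% in the members and 52.4% over all promoters. The upstream bases of the Col4a5 and Col4a6 pair and of the laminin chain Lamb1 are shown because Col4a5 and Lamb1 were called in 2i and all 3 rose after retinoic acid. Capitals mark matches to GGGCGG and CCAAT or to their reverse complements. A match describes the letters of the window and is no binding site.
Col4a5, chrX:141475169-141475418, plus strand: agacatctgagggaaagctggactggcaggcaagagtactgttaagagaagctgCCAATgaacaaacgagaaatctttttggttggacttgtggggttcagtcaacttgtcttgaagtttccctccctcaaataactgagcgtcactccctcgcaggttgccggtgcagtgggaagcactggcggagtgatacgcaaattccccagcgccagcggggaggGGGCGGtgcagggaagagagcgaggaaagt
Col4a6, chrX:141474077-141474326, minus strand: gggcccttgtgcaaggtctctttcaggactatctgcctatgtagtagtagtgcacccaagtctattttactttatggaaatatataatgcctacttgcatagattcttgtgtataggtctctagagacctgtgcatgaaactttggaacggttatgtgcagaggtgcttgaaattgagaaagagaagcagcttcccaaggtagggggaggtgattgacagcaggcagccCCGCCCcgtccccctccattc
Lamb1, chr12:31265043-31265292, plus strand: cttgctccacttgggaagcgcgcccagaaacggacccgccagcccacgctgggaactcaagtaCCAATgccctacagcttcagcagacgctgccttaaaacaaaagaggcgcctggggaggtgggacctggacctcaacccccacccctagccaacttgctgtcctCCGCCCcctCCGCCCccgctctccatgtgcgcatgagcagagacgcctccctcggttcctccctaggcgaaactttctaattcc

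Wild-type serum cells carried much RNA of laminin chains, nidogens and Col18a1 and little of the fibrillar collagens. On the FPKM scale, which is per length and, by inference from the values, about 10 times a conventional FPKM, the highest members were Lamc1, the common gamma chain, at 709 ± 22.7 (SD, n = 3) and Nid2 at 694 ± 20.7, whose ranges overlapped. Col18a1, the precursor of endostatin, followed at 479 ± 15.7, and then Nid1 at 236 ± 19.9. Lamb1 at 181 ± 13 and Lama5 at 179 ± 6.72 overlapped each other and lay below Nid1 without overlap. Next came Col4a1 at 83.4 ± 17.1 and Lama1 at 71.3 ± 1.5, without overlap, and then Lamb2 at 53.5 ± 4.63 and Col4a2 at 48.3 ± 11.1, which overlapped. The most abundant fibrillar chains were Col5a1 at 16.8 ± 3.07 and Col1a1 at 14.1 ± 5.39, which overlapped. The 11 fibrillar chains together reached 44.5 to 69.7 FPKM, against 2708 to 2803 for the 21 basement membrane genes. Among the other collagens Col9a2, a chain of the cartilage collagen IX, led at 36.6 ± 3.07.

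**Figure D1:**
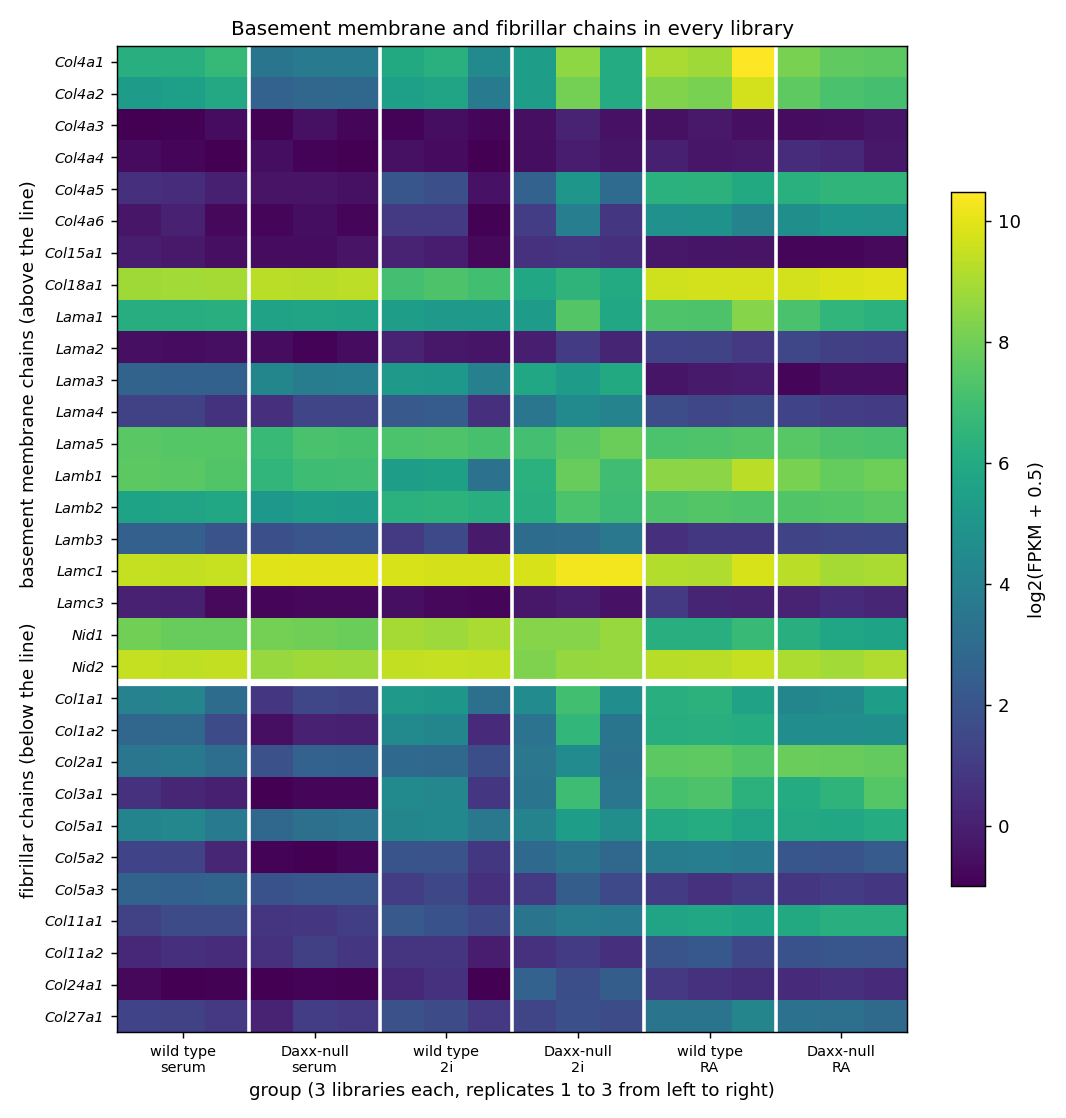
Level of 20 basement membrane genes (above the line) and the 11 fibrillar chains (below it) in each of the 18 libraries, as log2(FPKM + 0.5), with 3 libraries per group. Lamc1, Nid2 and Col18a1 are high in serum, most fibrillar chains are highest in retinoic acid, and Daxx-null 2i replicate 2 and wild-type 2i replicate 3 differ from their neighbours.

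In serum, Daxx-null cells had less RNA of Col4a1, Col4a2, Nid2, Lama5 and 10 fibrillar and other collagen chains, and more of Lama3, Lamc1 and Col18a1. Of 48 tested members 14 fell and 4 rose at an adjusted p under 0.05 (limma on log2(FPKM + 0.5), Benjamini-Hochberg over 18002 genes), against 18.9% and 9.29% of all genes. The 14 were 4 of 17 basement membrane genes, 6 of 11 fibrillar chains and 4 of 20 other collagens, and the 4 that rose were all basement membrane genes. The median log2 difference was -0.65 over the 48 members, -0.42 in the basement membrane genes, -0.96 in the fibrillar chains and -0.77 in the other collagens, against -0.12 over all genes. All 3 Daxx-null libraries lay below all 3 wild-type libraries for 33 of 48 members, against 35.6% of all genes, and above them for 6, against 19.1%.

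Of the collagen IV chains, the abundant pair fell. Col4a1, the most abundant chain of the network here, measured 73.8, 73.2 and 103 FPKM in wild-type serum replicates 1 to 3 and 10.4, 12.8 and 12.8 in Daxx-null serum (log2 difference -2.73, SE 0.63, adjusted p = 0.0046). Its partner Col4a2 measured 40.2, 43.8 and 60.9 against 5.53, 6.46 and 6.93 (log2 difference -2.82, SE 0.59, adjusted p = 0.0023). The groups did not overlap for either chain, and the fitted levels were 6.65 and 7.08 times lower. The ratio of Col4a1 to Col4a2 was 1.67 to 1.84 in wild type and 1.85 to 1.99 in Daxx-null serum. Col4a5 and Col4a6, which form their own trimers in other basement membranes, peaked at 1.01 and 0.545 FPKM in serum, and neither was called.

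The laminins split by chain. Lama3, the alpha chain of the epithelial anchoring laminin, rose from 5.84, 5.5 and 5.36 FPKM in wild type to 18.7, 14 and 14.4 in Daxx-null serum (log2 difference 1.41, SE 0.28, adjusted p = 0.0019). Lamb3, a beta chain of epithelial laminins, was at 3.32 to 5.22 in wild type and 2.96 to 3.66 in Daxx-null (log2 difference -0.36, SE 0.34, adjusted p = 0.48) and did not pass. Lamc1 rose from 709, 686 and 731 to 984, 992 and 987 (log2 difference 0.48, SE 0.16, adjusted p = 0.031). Lama5, the alpha chain most abundant in these cells, fell from 187, 177 and 174 to 109, 145 and 139.6 (log2 difference -0.46, SE 0.16, adjusted p = 0.045). Lama1 (-0.51, adjusted p = 0.37), Lamb1 (-0.68, adjusted p = 0.29) and Lamb2 (-0.45, adjusted p = 0.067) did not pass, although their wild-type and Daxx-null libraries did not overlap. Their adjusted p-values rest on the spread shared by all 6 groups, 2i and retinoic acid included. For Lama1 the SD was 1.5 and 1.16 FPKM in wild-type and Daxx-null serum, 70.3 in Daxx-null 2i and 105 in wild-type retinoic acid. A missed call here is thus no sign of equal levels in serum.

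The nidogens differed from each other. Nid2 fell from 717, 677 and 689 FPKM to 415, 454 and 448 (log2 difference -0.66, SE 0.10, adjusted p = 0.0002), while Nid1 measured 259, 225 and 224 in wild type and 275, 255 and 236 in Daxx-null (log2 difference 0.11, SE 0.15, adjusted p = 0.61). The ranges of Nid1 overlapped and those of Nid2 did not. Col18a1 rose from 463, 478 and 495 to 630.4, 617 and 656 (log2 difference 0.41, SE 0.12, adjusted p = 0.019).

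Fibrillar chains that passed all fell in Daxx-null serum. Col1a1, which with Col1a2 makes collagen I, went from 16.3, 18 and 7.96 FPKM to 1.28, 2.18 and 2.02 (log2 difference -2.59, SE 0.61, adjusted p = 0.005). Col1a2 went from 6.41, 6.78 and 2.54 to 0.194, 0.536 and 0.501 (log2 difference -2.58, SE 0.90, adjusted p = 0.043). In both, wild-type replicate 3 was the lowest of its group and still above every Daxx-null library. Col5a2, a chain of the fibril-nucleating collagen V, went from 0.69 to 2.03 FPKM down to at most 0.053 (log2 difference -1.89, SE 0.33, adjusted p = 0.0006). Its partner Col5a1 went from 17.9, 19.2 and 13.4 to 6.56, 9.04 and 9.72 (log2 difference -0.96, SE 0.28, adjusted p = 0.019). Col5a2 was thus nearly undetected in Daxx-null serum while Col5a1 was not. Col2a1, the cartilage collagen, went from 11, 12.1 and 8.4 to 3.08, 5.55 and 5.44 (log2 difference -1.11, SE 0.32, adjusted p = 0.017), and Col11a1, which co-assembles with it, from 1.91, 2.64 and 2.65 to 1.2, 1.27 and 1.71 (log2 difference -0.61, SE 0.21, adjusted p = 0.041). Of the 11 fibrillar chains 0 rose (limma), and 0 had a higher level at an unadjusted p under 0.05.

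Among the other collagens 4 fell and 0 rose (limma), with 11 lower and 0 higher at an unadjusted p under 0.05. No share of all genes is given at that unadjusted threshold. Col26a1 went from 15.8, 11.6 and 6.53 FPKM to 0.981, 0.853 and 0.77 (log2 difference -3.03, SE 0.46, adjusted p = 0.00021), with every Daxx-null library far below every wild-type one. Col9a2 went from 35.3, 34.4 and 40.1 to 13.7, 13.7 and 12.8 (log2 difference -1.41, SE 0.28, adjusted p = 0.0016), and Col9a3, another chain of collagen IX, from 13.9 to 17.4 down to 8.05 to 8.22 (log2 difference -0.93, SE 0.21, adjusted p = 0.0036). Col6a2, a chain of the microfibril collagen VI, went from 2.68 to 5.69 down to 1.03 to 1.45 (log2 difference -1.34, SE 0.37, adjusted p = 0.013).

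Of the 4 higher and 14 lower calls in serum, 2 and 8 held when each of the 6 serum libraries was left out in turn. Lamc1 and Col1a2 missed 0.05 without any 1 of the 6 (adjusted p 0.063 to 0.084 and 0.051 to 0.12), and Lama5 without any but Daxx-null replicate 2 (0.062 to 0.2). Col11a1 missed it without wild-type replicate 2 or 3 or Daxx-null replicate 1 or 2 (0.1 to 0.12). Col2a1 and Col5a1 missed it without wild-type replicate 1 or 2 or Daxx-null replicate 1 (0.053 to 0.092 and 0.062 to 0.09). Col6a2 missed it without wild-type replicate 2 or Daxx-null replicate 1 (0.054 to 0.064), and Col18a1 without wild-type replicate 1 or Daxx-null replicate 3 (0.061 to 0.062). A fit of the serum libraries alone called 28 members lower and 4 higher. The shares of all genes given for serum come from the fit of all 18 libraries and are no background for these counts. Quantile normalization called 10 lower and 3 higher, and moved the share of all genes' calls that were higher from 32.93% to 50.61%.

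Markers of primitive and parietal endoderm moved with the collagen IV pair. Of 11 markers 7 fell and 1, Sox7, rose in Daxx-null serum. Their summed level was 109 to 141 FPKM in wild type and 25 to 30.0 in Daxx-null serum, and none of the 11 was at 0 in any serum library. Gata4, a regulator of that lineage, was at 15.9 to 20.7 against 1.74 to 2.08 FPKM. Of 11 tested mesenchyme and fibroblast markers 4 fell and 0 rose (limma), and the 12 on the list summed to 92.3 to 210.0 against 52.7 to 106. Of the 12, 5 were at 1 FPKM or more in all 3 wild-type serum libraries and 4 in all 3 Daxx-null ones, with Thy1, Tagln and Twist1 among both. Fap was at 0 in all 6 serum libraries. Lum and Postn were at 0 in the 3 Daxx-null ones and reached at most 0.229 and 0.562 FPKM in wild type. The part of other cell types in the collagen and laminin differences was not tested.

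**Figure D2:**
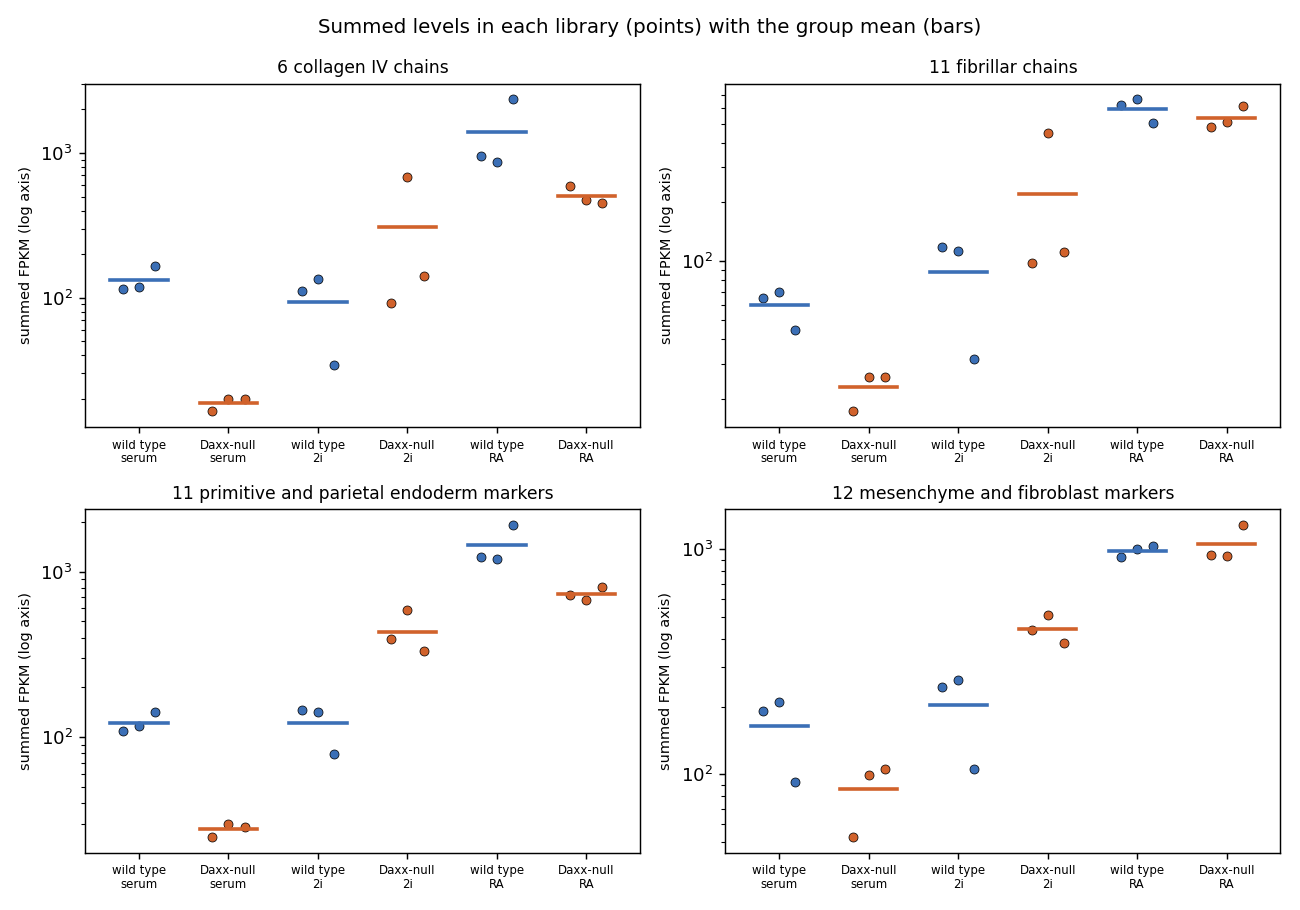
Summed FPKM (log axis) in each library of the 6 collagen IV chains, the 11 fibrillar chains, 11 markers of primitive and parietal endoderm and 12 markers of mesenchyme and fibroblasts, with bars at the means of 3 libraries. In serum the Daxx-null libraries lie below the wild-type ones in the collagen IV, fibrillar and endoderm panels, and 2 of the 3 lie above wild-type replicate 3 in the mesenchyme panel.

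In 2i the Daxx-null libraries held more RNA of Lamb1, Lamb3, Lama3, Lama4, Col4a5, Col11a1 and several minor collagens, and less of Col18a1 and both nidogens. Of 48 members 18 (37.5%) rose and 5 (10.4%) fell, near the 31.5% and 15.3% of all genes. By class, 6 of 17 basement membrane genes rose and 3 fell, 4 of 11 fibrillar chains rose and 0 fell (limma, 5 and 0 at an unadjusted p under 0.05), and 8 of 20 other collagens rose and 2 fell. The median log2 difference of the 48 was 0.91, against 0.20 over all genes, and without Daxx-null replicate 2 and wild-type replicate 3 it was 0.16 against 0.11. The groups did not overlap for 18 higher members (32.3% of all genes) and 5 lower ones (15.5%).

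Of the laminins Lamb3, Lama4, Lamb1 and Lama3 rose. Lamb1, the main beta chain of the embryonic laminins, measured 40.9, 45.1 and 9.15 FPKM in wild-type 2i replicates 1 to 3 and 79.6, 224 and 124 in Daxx-null 2i (log2 difference 2.31, SE 0.46, adjusted p = 0.00077). Without the 2 libraries that stood apart it was still called, at a smaller difference (1.20, adjusted p = 0.0017). Lamb3 rose from 1.42, 2.43 and 0.379 to 7.74, 7.98 and 11.6 (log2 difference 2.47, SE 0.34, adjusted p = 4.1e-05; without both libraries 2.07, adjusted p = 5.7e-05). Lama4, an alpha chain of vascular and mesenchymal laminins, rose from 0.982 to 4.64 up to 11 to 22 (log2 difference 2.33, SE 0.41, adjusted p = 0.00028; without both 1.53, adjusted p = 0.0013). Lama3 rose from 36.2, 34.8 and 15.6 to 56.2, 39.5 and 63.2 (log2 difference 0.93, SE 0.28, adjusted p = 0.014). That call missed 0.05 without wild-type replicate 3 or without Daxx-null replicate 3 (adjusted p 0.057 to 0.067), while Lamb1, Lamb3 and Lama4 were called without each library in turn. Lamc1 did not pass (0.35, adjusted p = 0.079), at 888, 858 and 859 against 880.0, 1249 and 1231 FPKM. Lama5 overlapped between the groups, at 148, 158 and 139 against 132, 187 and 239 (0.28, adjusted p = 0.16).

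The collagen IV values of 2i rested on the same 2 libraries. Col4a1 measured 62.7, 78.4 and 21 FPKM in wild type and 42, 366 and 66.3 in Daxx-null (log2 difference 1.09, SE 0.63, adjusted p = 0.17), and the groups overlapped. Without the 2 libraries that stood apart the difference turned (-0.41, adjusted p = 0.45). Col4a2 measured 43.5, 51.1 and 12.9 against 42.5, 272 and 66.7 and was called (log2 difference 1.56, SE 0.59, adjusted p = 0.039), but not without both libraries (0.17, adjusted p = 0.76) or without either (adjusted p 0.21). Col4a5 rose from 3.73, 2.96 and 0.237 to 5.51, 33 and 7.48 (log2 difference 2.41, SE 0.59, adjusted p = 0.0035) and was still called without both (0.86, adjusted p = 0.0091). Col4a6 was at 0.031 to 1.45 against 1.25 to 14.6 (1.60, adjusted p = 0.051). The ratio of Col4a1 to Col4a2 was 0.988 to 1.34 in Daxx-null 2i and 1.44 to 1.63 in wild-type 2i.

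Col18a1, Nid2 and Nid1 fell in Daxx-null 2i. Col18a1 measured 131, 153 and 127 FPKM in wild type and 56.3, 87.4 and 64.8 in Daxx-null (log2 difference -0.99, SE 0.12, adjusted p = 1.3e-05), the reverse of its serum direction. Nid2 measured 688, 717 and 693 against 308, 403 and 412 (log2 difference -0.91, SE 0.10, adjusted p = 5.9e-06), the direction it had in serum. Nid1 measured 490.3, 452 and 516 against 339, 336 and 416 (log2 difference -0.42, SE 0.15, adjusted p = 0.026). The Nid1 call missed 0.05 without wild-type replicate 1 or 3 or Daxx-null replicate 1 or 2 (adjusted p 0.058 to 0.085) and without both libraries (-0.32, adjusted p = 0.17). Those of Col18a1 and Nid2 held without each library and without both (-1.22, adjusted p = 4.8e-07 and -0.98, adjusted p = 2.5e-05).

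**Figure D3:**
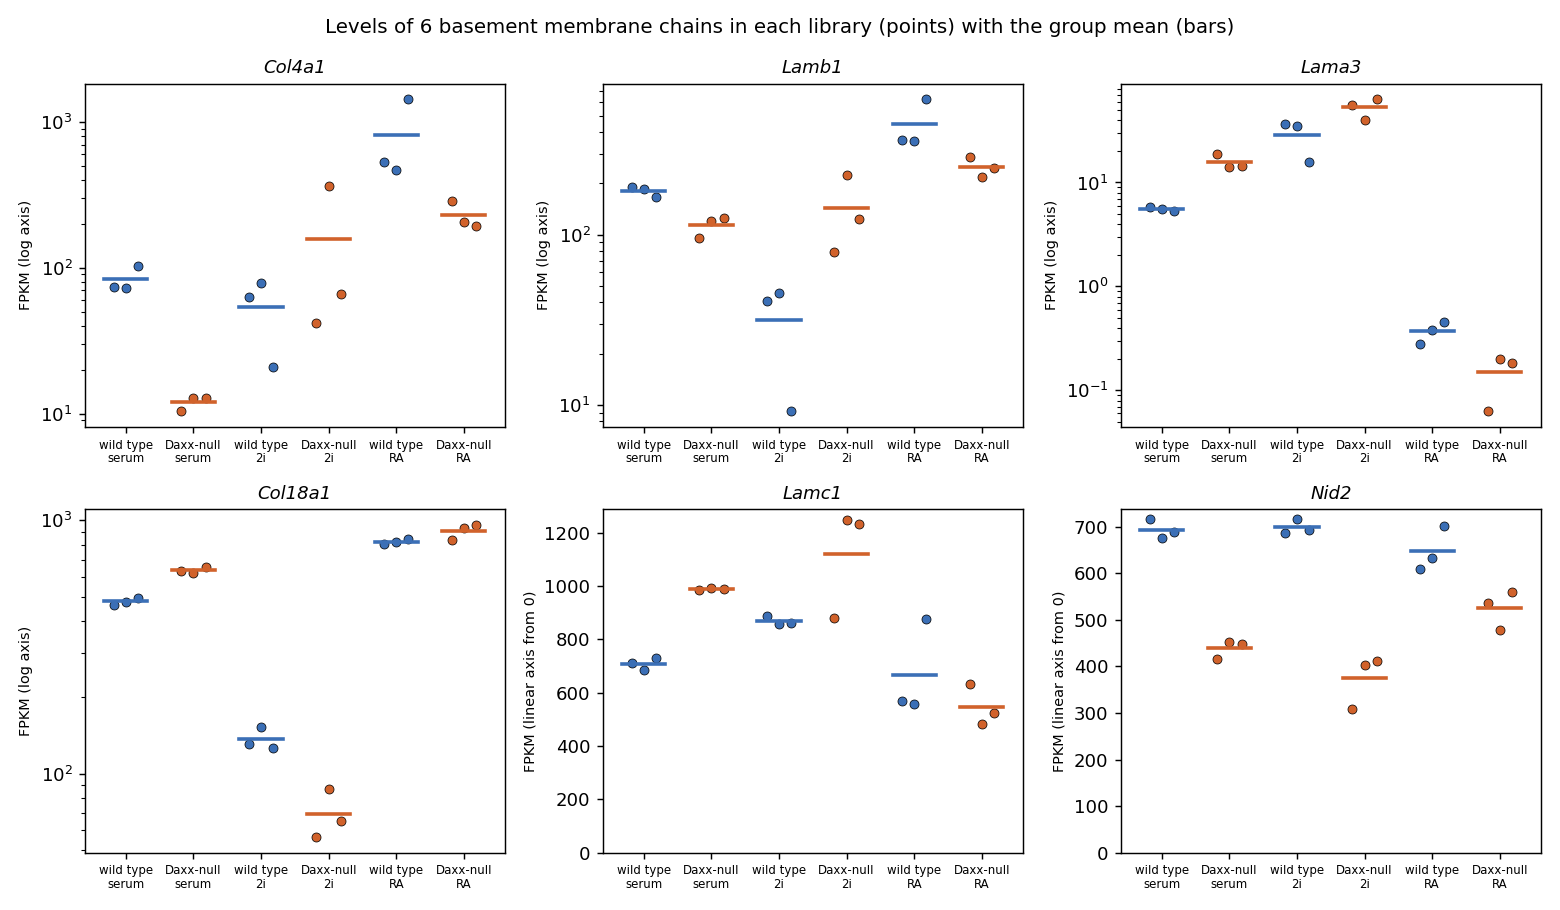
FPKM of Col4a1, Lamb1, Lama3 and Col18a1 (log axes) and of Lamc1 and Nid2 (linear axes from 0) in each library, with bars at the means of 3 libraries. Nid2 is lower in every Daxx-null library than in every wild-type library of its culture, and Col18a1 is lower in 2i than in the other cultures.

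Of the fibrillar chains of 2i, 3 were called with and without the libraries that stood apart. Col11a1 rose from 4.19, 3.25 and 2.3 FPKM to 10.3, 13.7 and 13 (log2 difference 1.80, SE 0.21, adjusted p = 1.1e-05). Col24a1 rose from at most 1.03 up to 2.85 to 5.58 (log2 difference 2.25, SE 0.34, adjusted p = 8.2e-05) and Col5a2 from 1.33 to 3.44 up to 6.61 to 10.1 (log2 difference 1.45, SE 0.33, adjusted p = 0.0019). Without both libraries they gave 1.52, adjusted p = 7.1e-05, then 2.02, adjusted p = 1.0e-05 and 0.92, adjusted p = 0.026. Col2a1 rose from 7.05, 6.82 and 2.9 to 11.3, 22.5 and 9.66 (log2 difference 1.29, SE 0.32, adjusted p = 0.0039) but was not called without both (0.56, adjusted p = 0.061). The chains of collagens I, III and V that did not pass overlapped between the groups. Col1a1 measured 35.1, 33.2 and 8.84 against 22.6, 129.5 and 24.6 (0.92, adjusted p = 0.23; without both -0.53, adjusted p = 0.31). Col1a2 measured 21.5, 19 and 0.787 against 9.77, 96.6 and 10.6 (1.44, adjusted p = 0.2; without both -0.96, adjusted p = 0.03). Col3a1, the chain of collagen III, measured 21.4, 19.6 and 1.27 against 10.2, 119.8 and 10.9 (1.41, adjusted p = 0.2; without both -0.92, adjusted p = 0.064). In these 3, Daxx-null replicate 2 was the highest of the 6 libraries, wild-type replicate 3 the lowest, and the sign turned without them. Col5a1 measured 19, 20.3 and 11.7 against 16.9, 43.3 and 25.1 (0.66, adjusted p = 0.067).

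Among the other collagens of 2i, Col13a1, a transmembrane collagen of cell junctions, fell from 6.28 to 6.61 FPKM down to 0.932 to 1.71 (log2 difference -1.93, SE 0.28, adjusted p = 7.1e-05). Col9a2 fell from 41.5, 38.8 and 44.8 to 34, 12.3 and 27.3 (log2 difference -0.87, SE 0.28, adjusted p = 0.018), but the call was lost without Daxx-null replicate 2 or wild-type replicate 3 (adjusted p 0.056 to 0.085). Col9a3 rose from 5.35 to 8.48 up to 14.3 to 18.7 (log2 difference 1.09, SE 0.21, adjusted p = 0.00053), so the 2 called chains of collagen IX went in opposite directions. Col22a1 (1.92, adjusted p = 9.9e-05), Col23a1 (1.99, adjusted p = 0.00014) and Col6a4 (1.44, adjusted p = 0.00049) rose and were called without both libraries, whereas Col6a3 (1.35, adjusted p = 0.0047) and Col8a1 (1.99, adjusted p = 0.02) were not (adjusted p 0.059 and 0.34). Col16a1 and Col20a1 were also called higher, at up to 2.31 and 4.92 FPKM in Daxx-null 2i, and without both libraries Col20a1 was called (0.86, adjusted p = 0.017) and Col16a1 was not (0.48, adjusted p = 0.17). Col26a1, which fell in serum, was at 7.22, 6.64 and 3.06 against 5.4, 16.2 and 3.18 (0.29, adjusted p = 0.62), a sign that turned under quantile normalization (-0.44). The 11 tested members left out by the rule for named members (Col5a3, Col6a1, Col6a5, Col7a1, Col8a2, Col11a2, Col16a1, Col17a1, Col20a1, Col25a1 and Col27a1) had group means of at most 16.0 FPKM, and of these Col16a1 and Col20a1 were the only ones called in a genotype comparison.

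Of the 18 members called higher in 2i 13 were called without Daxx-null replicate 2 and wild-type replicate 3 together, and of the 5 called lower 3 were. Col17a1 was then newly higher, and Col1a2 and Col6a1 newly lower. In that fit 29.2% of the 48 members were higher and 10.4% lower, near the 26.0% and 14.8% of all genes. A fit of the 2i libraries alone called 10 higher and 3 lower, and no share of all genes is given for that fit. Quantile normalization called 12 higher and 5 lower, and moved the share of all genes' calls that were higher from 67.26% to 46.95%.

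The endoderm markers were higher in Daxx-null 2i for 10 of 11, with summed levels of 331 to 582 FPKM against 79.8 to 145 in wild type, and none was at 0 in any 2i library. Without both libraries that stood apart 5 of the 11 were called higher, and of all genes 26.0% were then higher and 14.8% lower. Of 11 tested mesenchyme and fibroblast markers 3 rose and 1 fell, with sums of 385 to 509 against 105 to 262, and Tcf21 was at 0 in Daxx-null replicate 1. Tagln alone held 278 to 310 FPKM of the Daxx-null sums and 7.34 to 129 of the wild-type ones. By the sign of the difference 8 of the 11 were higher and 3 lower, Pdgfrb among the latter (13.7 to 16.7 against 30.9 to 50.7). Without both libraries 0 of these 11 markers rose and 5 fell (limma). Of 9 pluripotency markers 4 fell and 0 rose (limma), with sums of 10392 to 19914 against 23412 to 24956, lower in every Daxx-null library, and without both libraries 0 were called. Of 6 tested trophoblast markers 3 rose and 0 fell, with and without both libraries, and their sums were 961 to 1052 against 404 to 503. That list holds the keratins Krt8 and Krt18, which endoderm also expresses. In Daxx-null replicate 2 the 9 neural markers summed to 2304 FPKM, against 404 and 354 in the other Daxx-null and 1056 to 1208 in the wild-type libraries. Tubb3 (420 to 557 FPKM) and Stmn2 (512 to 549) made up most of the wild-type sums. Both were also high in wild-type serum (418 to 479 and 849 to 1135), so the sum is no measure of neural cells alone. The part of these cell types in the 2i values was not tested.

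After retinoic acid 1 member of 48 differed between genotypes at an adjusted p under 0.05. That was Col5a2, at 14, 14.5 and 12.8 FPKM in wild type and 3.69, 3.47 and 4.38 in Daxx-null (log2 difference -1.72, SE 0.33, adjusted p = 0.0077), and it was called without each library in turn. Across all genes 2.27% fell and 0.222% rose. Of the members 0 rose (limma), and at an unadjusted p under 0.05, 0 were higher and 9 lower. The shares of all genes are for adjusted p and are no background for the unadjusted counts. The groups did not overlap for 16 lower members (17.7% of all genes) and 4 higher ones (9.75%).

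Collagen IV was spread widely in wild-type retinoic acid. Col4a1 measured 528, 465 and 1431 FPKM in wild-type replicates 1 to 3 and 289, 206 and 194 in Daxx-null (log2 difference -1.64, SE 0.63, adjusted p = 0.26). Col4a2 measured 316, 284 and 842 against 196, 144 and 135 (log2 difference -1.43, SE 0.59, adjusted p = 0.3). For both chains replicate 3 was the highest wild-type library, and every wild-type value lay above every Daxx-null value. Without that replicate they gave -1.13, adjusted p = 0.74 and -0.94, adjusted p = 0.8. Lama1 measured 158, 156 and 339.8 against 145, 94.6 and 80.0 (-0.98, adjusted p = 0.3) and Lamb1 358, 353 and 626 against 287, 219 and 247 (-0.78, adjusted p = 0.55), with wild-type replicate 3 again the highest. Col4a5, by contrast, was at 79.8, 83.1 and 62.9 against 77.5, 90.9 and 89.9 (0.20, adjusted p = 0.97), and wild-type replicate 3 was the lowest of the 6. Wild-type replicate 3 also had the highest sum of endoderm markers, 1910.2 FPKM against 1230.2 and 1189 in the other wild-type and 673 to 809 in the Daxx-null libraries. Of the 11 primitive and parietal endoderm markers 3 fell in Daxx-null, as did 4 of 7 visceral endoderm and 3 of 7 tested endothelium markers. In each of these lists 0 rose (limma), and their part was not tested.

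The nidogens, Lamc1 and Col18a1 did not pass after retinoic acid. Nid2 measured 609, 634 and 702 FPKM in wild type and 537, 478 and 561 in Daxx-null (-0.30, adjusted p = 0.15) and Nid1 76.4, 75 and 106 against 73, 54.8 and 50.8 (-0.52, adjusted p = 0.079), in both cases without overlap. Lamc1 measured 569.9, 558 and 874 against 633, 483 and 523 (-0.27, adjusted p = 0.55) and Col18a1 804, 818 and 842 against 838, 932 and 959 (0.14, adjusted p = 0.74), with overlap. Lama5 measured 149, 159 and 172 against 178, 155 and 147, also with overlap.

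Col1a1 and Col1a2 were lower in all Daxx-null retinoic acid libraries without passing. Col1a2 measured 70.0, 72.8 and 69.1 FPKM against 24, 24.5 and 25.9, tight groups far apart (log2 difference -1.49, SE 0.90, adjusted p = 0.57), and its SE comes from the spread shared by all 6 groups, 2i included. Col1a1 measured 72.6, 81.5 and 47.9 against 18.8, 21.1 and 41.8 (log2 difference -1.35, SE 0.61, adjusted p = 0.36). Col27a1, a minor fibrillar chain, was also lower in every Daxx-null library without passing, at 10.2, 10.1 and 18 against 9.23, 9.06 and 7.44 (-0.50, adjusted p = 0.6). Of the other chains shown, Col2a1 and Col11a1 were higher in every Daxx-null library and Col5a1 overlapped. Col2a1 was at 194, 199 and 163 against 228, 226 and 213 (0.27, adjusted p = 0.85), Col11a1 at 52.1, 58.1 and 49.9 against 62.2, 72.2 and 72.4 (0.37, adjusted p = 0.55) and Col5a1 at 60.9, 68.3 and 52.4 against 61.2, 58.9 and 69.2 (0.06, adjusted p = 0.98). Among the other collagens Col26a1 was at 79.3, 80.7 and 52.4 against 34.6, 48.5 and 54.7 (-0.62, adjusted p = 0.68) and Col9a2 at 17.6, 18.3 and 26 against 9.76, 13 and 15.8 (-0.66, adjusted p = 0.32).

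**Figure D4:**
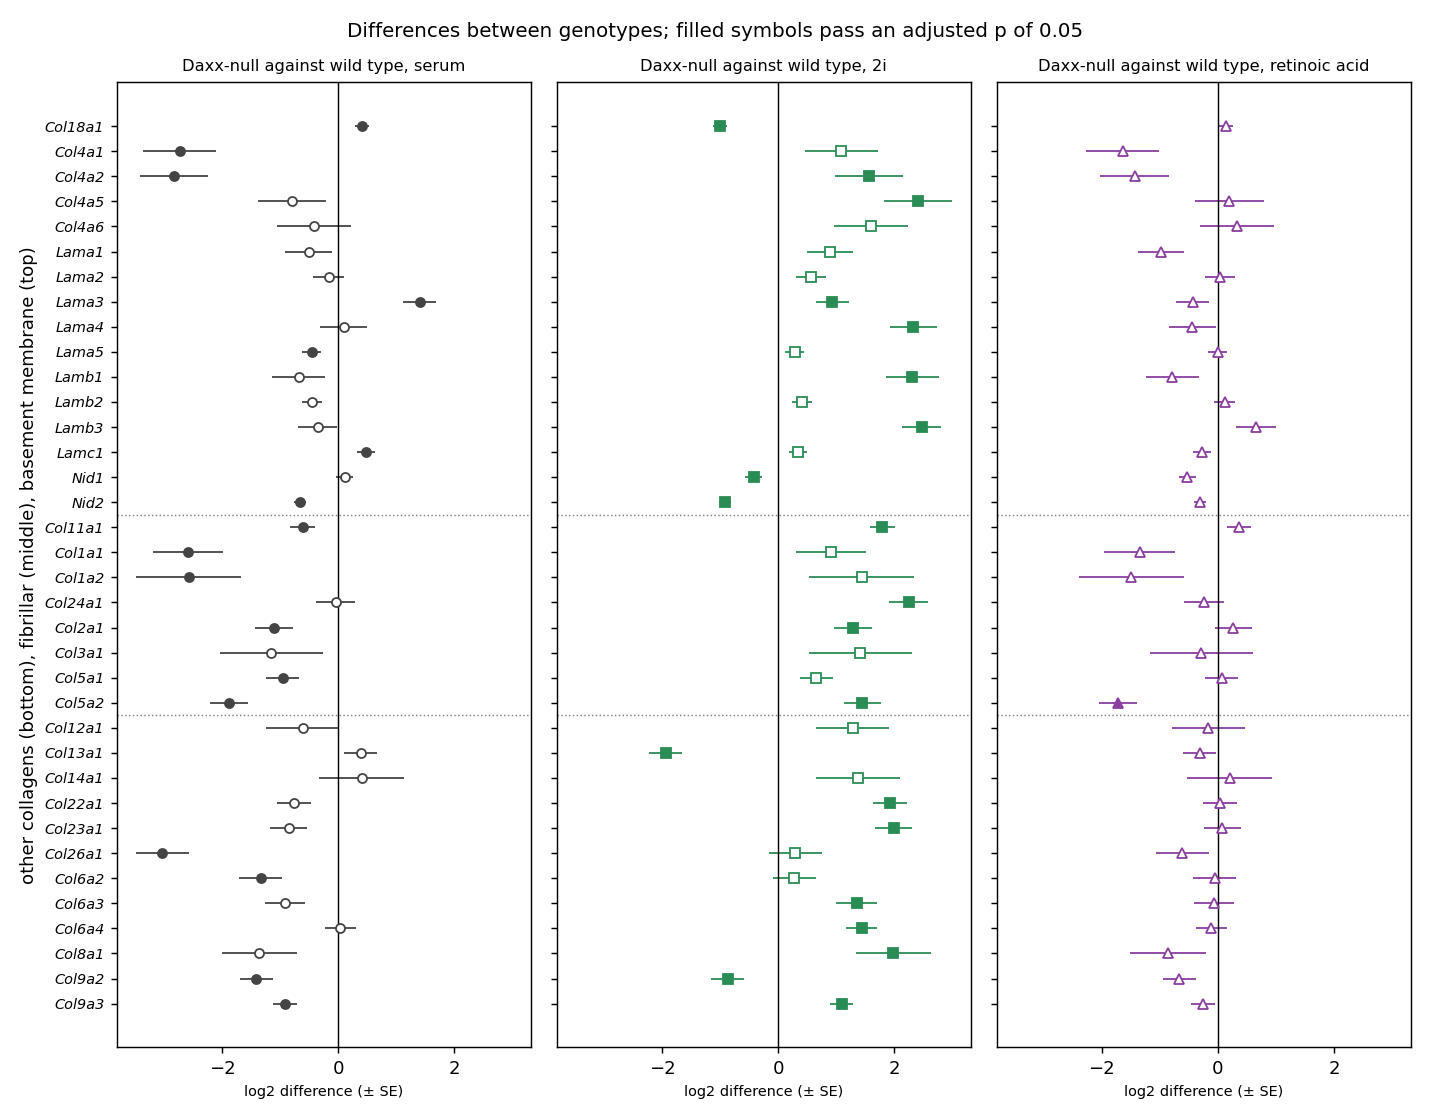
Log2 difference of Daxx-null minus wild type with its SE for 36 members in serum, 2i and retinoic acid, grouped as basement membrane genes, fibrillar chains and other collagens, with filled symbols for an adjusted p under 0.05. In serum 18 of all 48 tested members were called, 14 of them lower, against 9.29% of all genes higher and 18.9% lower. In 2i 18 were called higher and 5 lower, against 31.5% and 15.3% of all genes. In retinoic acid 1 symbol, Col5a2, is filled, against 0.222% and 2.27% of all genes.

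The genotype difference itself differed between 2i and serum for 31 of 48 members, 28 of them with a higher value in 2i and 3 with a lower one, against 31.5% and 11.5% of all genes (limma interaction). That count moved with the scaling: the authors' table gave 18 higher and 5 lower and quantile normalization 19 and 5, and the share of all genes' calls that were higher went from 73.2% to 47.12% and 47.02%. Col4a1 (3.82, adjusted p = 0.0031), Lamb1 (3.00, adjusted p = 0.0018) and Col1a1 (3.51, adjusted p = 0.0041) were among the 28, and Col18a1 (-1.40, adjusted p = 1.9e-05), Nid1 (-0.54, adjusted p = 0.046) and Col13a1 (-2.32, adjusted p = 0.00036) were the 3. The Nid1 call was lost without 8 of the 12 libraries in turn (adjusted p up to 0.10), and held without wild-type serum replicate 1, Daxx-null serum replicate 3, wild-type 2i replicate 2 or Daxx-null 2i replicate 3. Between retinoic acid and serum it differed for 3, against 4.82% of all genes higher and 3.38% lower: Col26a1 higher (2.41, adjusted p = 0.031) and Lama3 (-1.83, adjusted p = 0.011) and Lamc1 (-0.75, adjusted p = 0.049) lower. Lama3 was called without each of the 12 libraries in turn (adjusted p 0.020 to 0.032). After retinoic acid, however, it was at 0.281 to 0.451 FPKM in wild type and 0.063 to 0.201 in Daxx-null. These values lie below the pseudocount of 0.5, so its genotype difference in that culture is poorly measured. The Col26a1 call was lost without 10 of them (adjusted p up to 0.082), and held without wild-type serum replicate 3 or Daxx-null retinoic acid replicate 1. The Lamc1 call was lost without 9 (adjusted p up to 0.13), and held without wild-type retinoic acid replicate 1 or 2 or Daxx-null retinoic acid replicate 1. Both comparisons share the serum libraries.

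Fibrillar chains and collagen IV rose in wild-type cells grown with retinoic acid. These cells also differed from serum cells in LIF withdrawal and days of culture, and retinoic acid and these cannot be told apart. Relative to serum 28 of 48 members rose and 10 fell, against 30.4% and 34.1% of all genes, with a median log2 difference of 1.48 against -0.05. The wild-type serum libraries of this comparison also serve the genotype comparison in serum and that of wild-type 2i with serum. All 11 fibrillar chains passed, 10 up and Col5a3 down. Col3a1 went from 0.508 to 1.03 FPKM up to 82.7 to 154 (log2 difference 6.65, SE 0.89, adjusted p = 7.0e-06), Col2a1 from at most 12.1 up to 163 to 199 (log2 difference 4.09, SE 0.32, adjusted p = 1.9e-08) and Col11a1 from at most 2.65 up to 49.9 to 58.1 (log2 difference 4.22, SE 0.21, adjusted p = 1.1e-10). In Daxx-null cells 31 members rose and 9 fell against serum (33.0% and 33.1% of all genes), and the same 3 chains had log2 differences of 7.52, 5.46 and 5.20.

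The basement membrane genes diverged under retinoic acid, with 9 of 17 up and 4 down in wild type. Col4a5 rose from at most 1.01 up to 62.9 to 83.1 FPKM (log2 difference 5.87, SE 0.59, adjusted p = 3.1e-07) and Col4a6 from at most 0.545 up to 17 to 28.5 (log2 difference 4.92, SE 0.64, adjusted p = 5.5e-06). Col4a1 (3.09, adjusted p = 0.00046) and Col4a2 (3.14, adjusted p = 0.00021) rose as well. So did Lama1 (1.51, adjusted p = 0.0036), Lamb1 (1.24, adjusted p = 0.026), Lamb2 (1.61, adjusted p = 8.0e-07), Col18a1 (0.78, adjusted p = 3.1e-05) and Lama2, the muscle laminin chain, which reached at most 2.02 FPKM. Lama3 fell from 5.36 to 5.84 down to 0.281 to 0.451 FPKM (-2.80, SE 0.28, adjusted p = 3.6e-07) and Lamb3 from 3.32 to 5.22 down to 1.02 to 1.31 (-1.55, SE 0.34, adjusted p = 0.00084). Nid1 fell from 224 to 259 down to 75 to 106 (log2 difference -1.47, SE 0.15, adjusted p = 2.8e-07) while Nid2 was at 609 to 702 (-0.10, adjusted p = 0.39). The ratio of Nid1 to Nid2 was 0.325 to 0.361 in wild-type serum, 0.528 to 0.661 in Daxx-null serum, 0.63 to 0.745 and 0.834 to 1.1 in the corresponding 2i libraries, and 0.118 to 0.151 and 0.0907 to 0.136 in those of retinoic acid. Endoderm markers rose for 10 of 11 and mesenchyme markers for 9 of 11, with sums of 1189 to 1910.2 and 921 to 1039.9 FPKM after retinoic acid, and their part was not tested.

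Among the other collagens 9 of 20 rose and 5 fell after retinoic acid in wild type. Col14a1 and Col12a1, which decorate the surface of fibrils, went from at most 0.241 and 0.59 FPKM up to 30.8 to 32.1 (5.49, adjusted p = 6.8e-06) and 33.8 to 41.2 (5.40, adjusted p = 1.6e-06). Col26a1 went from 6.53 to 15.8 up to 52.4 to 80.7 (2.65, adjusted p = 9.6e-05). Of the 5 that fell, Col6a4 went from 2.77 to 4.24 down to at most 0.172 FPKM (-2.66, adjusted p = 3.4e-07).

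The 2i cultures differed from the serum ones in the inhibitors and vitamin C together, and possibly in serum and base medium. These cannot be told apart. Between 2i and serum, wild-type cells differed in 18 of 48 members, 7 higher and 11 lower, against 24.7% and 24.8% of all genes. Col18a1 fell from 463 to 495 down to 127 to 153 FPKM (log2 difference -1.81, SE 0.12, adjusted p = 1.3e-08) and Lamb1 from 167 to 191 down to 9.15 to 45.1 (log2 difference -2.79, SE 0.46, adjusted p = 0.00012). Lama3 rose to 15.6 to 36.2 (log2 difference 2.18, SE 0.28, adjusted p = 1.3e-05) and Nid1 to 452 to 516 (log2 difference 1.04, SE 0.15, adjusted p = 2.5e-05). Wild-type 2i replicate 3 was the lowest of its group for Lamb1 and Lama3, and without it and Daxx-null 2i replicate 2, 31 members were called, 20 of them higher. The shares of all genes above come from the fit of all 18 libraries and are no background for that count. In Daxx-null cells, where the Y-linked transcripts differed too, 34 members were higher and 4 lower in 2i than in serum, against 41.8% and 21.8% of all genes. Quantile normalization and the authors' table each gave 24 higher and 9 lower, and moved the share of all genes' calls that were higher from 65.69% to 45.47% and 45.42%.

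**Figure D5:**
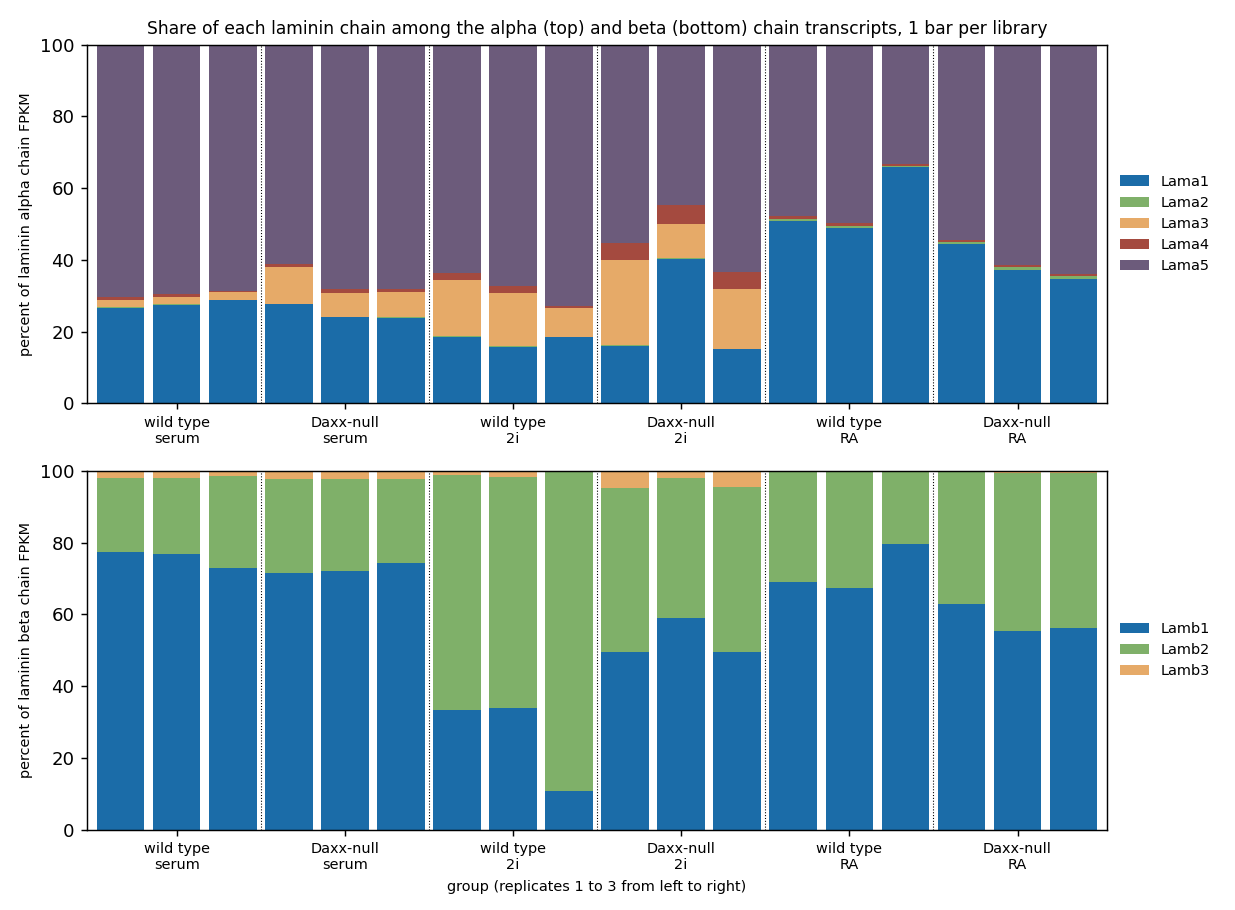
Percent of the summed FPKM of the 5 laminin alpha chains (top) and of the 3 beta chains (bottom) that each chain holds, 1 bar per library in the order of the groups. Lama5 and Lamb1 lead in serum, Lama3 is visible in 2i and Daxx-null serum, Lama1 is larger in retinoic acid, and Lamb2 leads in wild-type 2i.

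The make-up of the laminin RNA differed between cultures. In wild-type serum Lama5 held 68.5 to 70.4% and Lama1 26.7 to 28.8% of the alpha chain FPKM, whereas in wild-type retinoic acid Lama1 held 48.8 to 65.8%, with replicate 3 the highest, and in Daxx-null retinoic acid 34.7 to 44.3%. Lama3 held 2.12 to 2.2% in wild-type serum, 6.62 to 10.5% in Daxx-null serum, 8.17 to 15.6% in wild-type 2i and at most 0.12% after retinoic acid. Among the beta chains Lamb1 held 72.8 to 77.5% in wild-type serum and 10.7 to 33.9% in wild-type 2i, where Lamb2 held 64.3 to 88.9%. In Daxx-null 2i Lamb1 held 49.5 to 58.9%, above all wild-type 2i libraries.

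Other genes of the matrix were counted from pathway lists. Of all genes tested 9.29% rose and 18.9% fell in serum, 31.5% and 15.3% in 2i, and 0.222% and 2.27% after retinoic acid. Without both 2i libraries that stood apart, the 2i shares were 26.0% and 14.8%. Of 19 tested further basement membrane components 8 fell and 0 rose (limma) in Daxx-null serum, among them Tinagl1 (8.85 ± 1.42 to 2.14 ± 0.50 FPKM, log2 difference -1.83, adjusted p = 0.00038) and the matricellular Smoc1 (60.0 ± 16.2 to 25.3 ± 1.44 FPKM, log2 difference -1.19, adjusted p = 0.0078). In 2i 11 of the 19 rose and 1 fell, among them Egflam (0.337 ± 0.165 to 4.54 ± 2.65 FPKM, log2 difference 2.49, adjusted p = 2.3e-05) and the integrin ligand Npnt (9.76 ± 5.1 to 33.2 ± 7.61 FPKM, log2 difference 1.86, adjusted p = 0.00027), and without both 2i libraries that stood apart 7 rose and 1 fell. After retinoic acid 2 of the 19 fell, Tinagl1 (46.9 ± 22.4 to 18.1 ± 7.18 FPKM, log2 difference -1.32, adjusted p = 0.025) and the collagen binding protein Sparc (2310.0 ± 616 to 1230.0 ± 164 FPKM, log2 difference -0.88, adjusted p = 0.0071). Of 29 tested genes of collagen maturation 9 fell and 1 rose in serum. P4ha1 (147 ± 15.1 to 54 ± 12.7 FPKM, log2 difference -1.46, adjusted p = 9.1e-05) and P4ha2 (72.8 ± 7.43 to 21.7 ± 6.25 FPKM, log2 difference -1.76, adjusted p = 0.00013), catalytic subunits of the prolyl hydroxylase that stabilises the triple helix, fell, as did the crosslinking oxidase Loxl2 (82.4 ± 7.58 to 26.2 ± 1.8 FPKM, log2 difference -1.63, adjusted p = 0.034). In 2i 10 of the 29 rose and 4 fell, with P4ha3 (1.32 ± 0.742 to 9.0 ± 7.73 FPKM, log2 difference 2.18, adjusted p = 0.00061) and the procollagen protease Bmp1 (11.8 ± 6.62 to 50.9 ± 32.2 FPKM, log2 difference 2.09, adjusted p = 0.0017) among the former. These shares, 34.5% and 13.8%, were near those of all genes, and Bmp1 was still called without both libraries (1.03, adjusted p = 0.022). After retinoic acid 1 of the 29 fell, the lysyl hydroxylase Plod2 (199 ± 38.7 to 129 ± 5.85 FPKM, log2 difference -0.61, adjusted p = 0.01).

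Of 13 tested receptors 2 rose and 1 fell in Daxx-null serum. The laminin receptors Bcam (292 ± 3.11 to 500.0 ± 45.3 FPKM, log2 difference 0.77, adjusted p = 0.00012) and Itgb4 (13.5 ± 1.29 to 21.5 ± 2.48 FPKM, log2 difference 0.65, adjusted p = 0.024) rose and the collagen receptor Ddr2 fell (8.16 ± 1.45 to 4.09 ± 0.27 FPKM, log2 difference -0.90, adjusted p = 0.046). In 2i 6 of the 13 rose and 1 fell, among them Ddr2 (107 ± 53.2 to 412 ± 53.1 FPKM, log2 difference 2.10, adjusted p = 9.8e-05) and Ddr1 (22.2 ± 13.4 to 102 ± 56.2 FPKM, log2 difference 2.31, adjusted p = 0.00051), and without both libraries 4 rose and 2 fell, with Ddr1 still called (1.20, adjusted p = 0.00019). Of 13 tested proteases and inhibitors 6 fell and 0 rose (limma) in serum, among them the gelatinase Mmp2 (77 ± 3.14 to 33.8 ± 3.54 FPKM, log2 difference -1.18, adjusted p = 0.011) and the inhibitor Reck (21.3 ± 1.03 to 10.9 ± 1.86 FPKM, log2 difference -0.95, adjusted p = 8.8e-05). In 2i 5 of these rose and 3 fell, with Mmp12 (0.853 ± 0.741 to 15.6 ± 6.59 FPKM, log2 difference 3.68, adjusted p = 5.9e-06) and the matrix-bound inhibitor Timp3 (20.7 ± 12.1 to 141 ± 19.3 FPKM, log2 difference 2.98, adjusted p = 1.9e-05) among the former, and the counts without both libraries were again 5 and 3. The 38.5% that rose compares with 31.5% of all genes. After retinoic acid 0 receptors and 0 proteases or inhibitors passed (limma).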

How the data were processed

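RNA-seq of 18 libraries (6 groups, 3 replicates each) was analysed from per-gene tables. Per the submitters' processing notes, reads were aligned with Bowtie2 2.2.6 to mm9 and processed with HOMER 4.8 and limma (version not given). The labels' protocols describe DNase-treated RNA, oligo-dT enrichment and ribosomal RNA depletion. The FPKM values were deposited by the authors per library, and their scale was inferred from the values (value times length summed to 58.2 to 61.0% of 10 M). The deposited log2 table of the authors equals quantile normalization of these FPKM values with a pseudocount of 1 and served as an alternative.

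From the FPKM values, log2(FPKM + 0.5) was fitted with limma 3.58.1 (R 4.3.3, intensity trend) for the 18002 genes with at least 1 FPKM in at least 3 libraries, as 1 model of 6 group means with 9 contrasts. Adjusted p is Benjamini-Hochberg over all 18002 genes within a contrast, and fold changes on this scale understate the change of low genes. Counts at an unadjusted p under 0.05 (limma) are given without the share of all genes at that threshold. The code was tested on simulated data. Library depth was recovered from the whole-number steps of low values (100% whole within 0.1 of a unit).

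Named members are all tested basement membrane genes and any other member with a group mean of at least 20 FPKM, or called with a log2 difference of at least 1 in a genotype comparison. Values in every library are given for those called in a genotype comparison and with a group mean of at least 20. Members named outside that rule were chosen after their values were seen, as were single marker genes. For each pathway list, up to 3 called genes with the largest difference were eligible. The members and lists were chosen with earlier results of these data known. Promoter sequences come from RefSeq (GRCm38.p6), whose coordinates are not comparable with the mm9 positions of the genes. One basement membrane gene enters the counts but is not reported here. Alternatives are given in the closing section.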

Additional observations from a re-analysis of the deposited data

Results flagged for a closer look

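These named members are listed because the Daxx-null minus wild-type log2 difference in 1 culture differed from that in serum, by the interaction term of limma with Benjamini-Hochberg adjustment over 18002 genes (3 libraries in each group). All values are the difference in the other culture minus the difference in serum, and both sets of interactions share the serum libraries.

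For 2i minus serum, the difference was higher for 8 basement membrane genes: Col4a1 3.82 (SE 0.89, adjusted p = 0.0031), Col4a2 4.39 (SE 0.83, adjusted p = 0.00068), Col4a5 3.20 (SE 0.83, adjusted p = 0.0061), Lama4 2.24 (SE 0.57, adjusted p = 0.0055), Lama5 0.74 (SE 0.23, adjusted p = 0.016), Lamb1 3.00 (SE 0.65, adjusted p = 0.0018), Lamb2 0.87 (SE 0.25, adjusted p = 0.011) and Lamb3 2.83 (SE 0.48, adjusted p = 0.00031). Among fibrillar chains it was higher for 7: Col11a1 2.41 (SE 0.30, adjusted p = 2.4e-05), Col1a1 3.51 (SE 0.86, adjusted p = 0.0041), Col1a2 4.02 (SE 1.27, adjusted p = 0.019), Col24a1 2.29 (SE 0.48, adjusted p = 0.0014), Col2a1 2.40 (SE 0.45, adjusted p = 0.00067), Col5a1 1.62 (SE 0.40, adjusted p = 0.0045) and Col5a2 3.34 (SE 0.46, adjusted p = 5.8e-05). Of the other collagens named, 8 had a higher difference: Col22a1 2.69 (SE 0.42, adjusted p = 0.00014), Col23a1 2.84 (SE 0.45, adjusted p = 0.00016), Col26a1 3.32 (SE 0.65, adjusted p = 0.00083), Col6a2 1.61 (SE 0.52, adjusted p = 0.021), Col6a3 2.27 (SE 0.49, adjusted p = 0.0017), Col6a4 1.41 (SE 0.38, adjusted p = 0.0077), Col8a1 3.35 (SE 0.92, adjusted p = 0.0083) and Col9a3 2.02 (SE 0.29, adjusted p = 8.1e-05). It was lower for 3 members: Col18a1 -1.40 (SE 0.17, adjusted p = 1.9e-05), Nid1 -0.54 (SE 0.21, adjusted p = 0.046) and Col13a1 -2.32 (SE 0.40, adjusted p = 0.00036). The Daxx-null 2i libraries also differed from Daxx-null serum libraries in their Y-linked transcripts.

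For retinoic acid minus serum, the difference was higher for 1 member, Col26a1 2.41 (SE 0.65, adjusted p = 0.031), and lower for 2, Lama3 -1.83 (SE 0.40, adjusted p = 0.011) and Lamc1 -0.75 (SE 0.22, adjusted p = 0.049). With each of the 12 libraries left out in turn, Lama3 was called every time, Col26a1 was lost 10 times and Lamc1 9 times, and in the 2i comparison Nid1 was lost 8 times and Col6a2 once, without wild-type serum replicate 2 (adjusted p = 0.058). Lama3 was below 0.5 FPKM in every retinoic acid library.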

How the results depend on the processing

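Each comparison was repeated with pseudocounts of 0.1 and 2, no filter on low values, quantile normalization, median-ratio scaling, the authors' normalised table, only the groups compared, a replicate block, each library left out in turn, and both 2i libraries that stood apart left out. Of the named members' genotype differences that were called, 491 values under an alternative stayed called in the same direction, 90 were no longer called and 0 reversed. Of those not called, 919 stayed so, 39 became called and 52 reversed. Where a count or sign moved, the cause was not tested. The counts of members in this section are given without the shares of all genes.

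With only the groups compared, which leaves fewer libraries to estimate the spread, the genotype comparison called 32 members in serum (28 lower, against 14), 13 in 2i (10 higher and 3 lower, against 18 and 5) and 2 in retinoic acid (both lower), the retinoic acid minus serum interaction called 15 (12 higher, against 1) and Daxx-null 2i against serum called 2 lower, against 4. Quantile normalization and the authors' table each called 9 lower for Daxx-null 2i against serum and 5 lower for the 2i minus serum interaction (against 3), where the authors' table called 18 higher (against 28) and median-ratio scaling called 5 lower. For the retinoic acid minus serum interaction (1 higher and 2 lower), quantile normalization called 1 lower, no filter 1 lower, a pseudocount of 2 called 0 higher, and the authors' table called 1 in all, 0 higher and 1 lower. The replicate block called 2 higher and 1 lower in that interaction, and 22 members in serum and 26 in 2i. Whether the replicate numbers pair the libraries is not stated in the labels and was not settled here. The deviations of same-numbered libraries from their group means correlated at a median of 0.027 (-0.187 to 0.326, 45 pairs). For libraries of different numbers the median was -0.015 (-0.266 to 0.228, 90 pairs). Of 18 libraries 10 correlated best with their own number.

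Signs also turned for values that were not called. Under quantile normalization these log2 differences were Lama2 in 2i -0.13, Lamb3 in serum 0.060, Col24a1 in serum 0.12, Col24a1 in retinoic acid 0.14, Col26a1 in 2i -0.44, Col6a2 in 2i -0.56, Col6a2 in retinoic acid 0.12, Col6a3 in retinoic acid 0.24 and Col6a4 in retinoic acid 0.13. Under the authors' table they were Lama2 in 2i -0.081, Lamb3 in serum 0.054, Col24a1 in serum 0.062, Col24a1 in retinoic acid 0.11, Col26a1 in 2i -0.39, Col6a2 in 2i -0.43, Col6a2 in retinoic acid 0.11, Col6a3 in retinoic acid 0.15 and Col6a4 in retinoic acid 0.077. Under median-ratio scaling Lama5 in retinoic acid was 0.048.

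With libraries left out, the genotype comparison called 11 to 15 members in serum (2 to 3 higher, 8 to 12 lower), 14 to 28 higher and 3 to 5 lower in 2i (28 higher without Daxx-null 2i replicate 1, and 3 lower without Daxx-null 2i replicate 2 or wild-type 2i replicate 3), and 1 to 2 in retinoic acid (1 to 2 lower). Wild-type 2i against serum gave 14 to 31 calls (5 to 20 higher), with 23 without wild-type 2i replicate 3 and 31 without both libraries. Daxx-null 2i against serum gave 2 to 5 lower, and the retinoic acid minus serum interaction 1 to 4 in all (0 to 1 higher, 1 to 3 lower). The log2 differences that changed sign ranged as follows: Col4a1 in 2i from -0.41 to 1.72, Col4a6 in 2i from -0.013 to 2.17, Lama2 in retinoic acid from -0.097 to 0.11, Lama4 in serum from -0.092 to 0.36, Lama5 in retinoic acid from -0.078 to 0.057, Col1a1 in 2i from -0.53 to 1.35, Col1a2 in 2i from -0.96 to 2.15, Col24a1 in serum from -0.098 to 0.034, Col3a1 in 2i from -0.92 to 2.04, Col3a1 in retinoic acid from -0.69 to 0.014, Col5a1 in retinoic acid from -0.036 to 0.15, Col12a1 in 2i from -0.34 to 1.81, Col14a1 in 2i from -0.35 to 2.17, Col22a1 in retinoic acid from -0.019 to 0.11, Col23a1 in retinoic acid from -0.020 to 0.15, Col26a1 in 2i from -0.67 to 0.77, Col6a2 in 2i from -0.49 to 0.64, Col6a3 in retinoic acid from -0.20 to 0.019 and Col6a4 in serum from -0.11 to 0.16. Counting units limit the lowest values. The filter left 9 members untested, but a member that passed it could still be low in the groups compared. Col24a1, for example, was at most 0.101 FPKM in serum.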
